A study of Homo sapiens with 6 samples.

Results

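The genes described here are AHR, which encodes the aryl hydrocarbon receptor, its partner genes ARNT and ARNT2, and 5 genes known to respond to it: AHRR, TIPARP, CYP1A1, CYP1B1 and ALDH1A3. They were selected on their symbols and chosen by the fall of CYP1A1 in these same libraries, so their differences between the groups are given as a description, without p-values. All 8 were found among the 46427 genes of the deposited gene table, with 37 of its 170322 transcripts, and all 8 passed the filter on low counts, which kept 16557 genes. The cells were MDA-MB-231/RR, a radioresistant derivative of 1 human triple-negative breast cancer line, grown in DMEM with serum. One group of 3 libraries was labelled control and the other, also of 3, was labelled with ortho-topolin riboside (oTR, an aromatic cytokinin nucleoside) plus melatonin. All groups carried the radioresistant background, and neither compound was given alone in the libraries used here. The study's design names altered transcripts as a possible basis of the combined toxicity of both compounds. The sources used here give no dose, exposure time or solvent, and the labels do not say whether the 3 samples of a group were separate cultures.

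The aryl hydrocarbon receptor is a ligand-activated transcription factor of the bHLH-PAS family. Without ligand it rests in the cytosol with HSP90 and the co-chaperone PTGES3. With ligand it enters the nucleus, pairs with ARNT and binds xenobiotic response elements, whose core is written GCGTG. CYP1A1 and CYP1B1, which oxidise polycyclic aromatic compounds and also hydroxylate oestrogens in breast cells and melatonin, are its best known targets. AHRR competes for ARNT and represses the same genes, and TIPARP, a mono-ADP-ribosyltransferase, lowers the receptor itself, so both close a feedback loop.

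Transcripts of the receptor rose in co-treated cells while transcripts of the 5 target genes named above fell. CYP1A1 was 6.41-fold lower, AHRR 2.45-fold, CYP1B1 2.06-fold, ALDH1A3 1.41-fold and TIPARP 1.36-fold lower, and AHR was 1.75-fold higher. ARNT and ARNT2 did not pass the test. Of the 8 genes, 6 were called (edgeR's quasi-likelihood test across all genes, Benjamini-Hochberg adjusted p up to 0.05), 5 downward and 1 upward. Over all 16557 genes tested 33.7% were called, 17.1% downward and 16.6% upward. The normalized values of the groups did not overlap for 7 of the 8 genes, against 47.4% of all genes tested. Since the genes were chosen from this contrast, nothing further is read from these counts. The 5 target genes do not stand for all targets of the receptor: NQO1 and CYP2S1, described below, were not called. In RNA from whole cultures, fewer cells with a transcript and less transcript per cell cannot be told apart.

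The libraries held 50569611 to 72309015 estimated counts. Of the markers of the labelled cell type, VIM was between 2037 and 2694 TPM (a level per length, scaled to a common total). Of 5 luminal markers, PGR was listed at 0 in all libraries, ESR1 and CDH1 reached at most 0.0139 and 0.0243 TPM, and ERBB2 and GATA3 were present, at 28.3 to 37.4 and 3.01 to 4.65 TPM. Of the markers of other cells, 4 of 5 immune, 3 of 3 endothelial and 4 of 5 fibroblast genes stayed under 1 TPM in every library, the exceptions being CD68 and COL1A1. Counts of nuclear ribosomal RNA were 0.294% to 0.37% of each control library, 0.479% to 0.551% of co-treated replicates 1 and 3 and 1.07% of co-treated replicate 2. Each co-treated library lay above each control in this share, a difference between the groups that leaving out 1 library does not remove. None of the 6 calls was lost when any 1 library, co-treated replicate 2 included, was left out. These refits reuse libraries from which the genes were chosen, so they only describe how the calls depend on single libraries.

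To show where the receptor's core motif lies at these genes, the windows from 250 bases before to 50 bases after the gene start were searched for GCGTG on both strands. RefSeq windows (GRCh38.p14) were matched for 6 of the 8 genes: AHR, AHRR, ALDH1A3, ARNT, CYP1A1 and TIPARP. The motif was present in 6 of their 9 windows and at 5 of the 6 genes, ARNT being the one without it. AHRR and TIPARP had additional windows, and of those of TIPARP only the printed one held the motif. The count per gene is therefore not comparable with the shares per window that follow. Of all 35116 windows of that length, 36.5% held it at least once and 12.7% more than once. Whether the motif is more common at these genes than at others was not tested. Sequence further from the start was not searched. Windows at the starts of 3 genes that fell are printed below from 5′ to 3′ on the gene's strand, with each match in capitals (CACGC is the motif on the other strand). The CYP1A1 window lies on the minus strand at chr15:74725479-74725778, the AHRR window on the plus strand at chr5:321464-321763 and the TIPARP window on the plus strand at chr3:156674340-156674639.
CYP1A1: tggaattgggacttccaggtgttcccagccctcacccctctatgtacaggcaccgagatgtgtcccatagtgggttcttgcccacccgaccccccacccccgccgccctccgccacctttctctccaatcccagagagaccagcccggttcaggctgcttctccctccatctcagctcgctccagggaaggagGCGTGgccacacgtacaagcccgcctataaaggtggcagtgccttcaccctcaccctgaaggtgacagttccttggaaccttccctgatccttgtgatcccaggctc
AHRR: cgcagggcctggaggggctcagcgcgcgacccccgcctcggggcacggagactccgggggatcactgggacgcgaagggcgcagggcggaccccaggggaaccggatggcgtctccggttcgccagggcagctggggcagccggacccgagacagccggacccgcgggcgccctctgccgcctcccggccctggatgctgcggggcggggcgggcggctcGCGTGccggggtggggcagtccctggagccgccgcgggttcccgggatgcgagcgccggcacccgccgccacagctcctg
TIPARP: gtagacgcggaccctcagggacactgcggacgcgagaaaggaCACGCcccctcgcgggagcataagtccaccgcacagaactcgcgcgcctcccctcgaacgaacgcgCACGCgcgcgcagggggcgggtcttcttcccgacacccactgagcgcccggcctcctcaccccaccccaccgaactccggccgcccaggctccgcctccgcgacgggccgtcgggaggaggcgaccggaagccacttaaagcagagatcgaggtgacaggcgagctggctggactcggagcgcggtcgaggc

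The CYP1A1 match began 57 bases before the start. The AHRR match began 30 bases before the start and was the only match at these genes with the longer form TNGCGTG, which 5.51% of all windows held. TIPARP had matches on the other strand, beginning 208 and 142 bases before the start. CpG dinucleotides, which the motif contains, numbered 10 in the CYP1A1 window, 40 in the AHRR window and 41 in the TIPARP window, against a median of 14 over all windows. ALDH1A3 had a match 197 bases before the start, on the other strand, and a second 43 bases before it on the gene's strand. AHR, the gene that rose, had a match that began 38 bases after its start and so within the transcribed part. Stretches of 61 bases around the first ALDH1A3 match (window chr15:100879581-100879880, plus strand) and the AHR match (window chr7:17298402-17298701, plus strand) are shown for comparison.
ALDH1A3: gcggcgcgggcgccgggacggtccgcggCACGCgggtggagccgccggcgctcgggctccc
AHR: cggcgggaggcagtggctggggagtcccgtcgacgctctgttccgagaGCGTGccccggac

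AHR (gene ID 196, chromosome 7, 17298652 to 17346147 on GRCh38) had 54.0, 62.3 and 50.1 normalized CPM (estimated counts scaled to a common library size) in control replicates 1, 2 and 3, and 101, 95.5 and 95.6 in the co-treated replicates. Each co-treated library lay above each control. The means were 55.5 ± 6.23 and 97.3 ± 3.02 CPM (SD, n = 3), a log2 fold change of 0.81 ± 0.07 (SE). The 3 control values spread more widely than those of any other of the 8 genes in that group, with a coefficient of variation of 11.2% against 1.67% from counting alone. All AHR counts came from its 1 listed transcript, NM_001621.

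**Figure D1:**
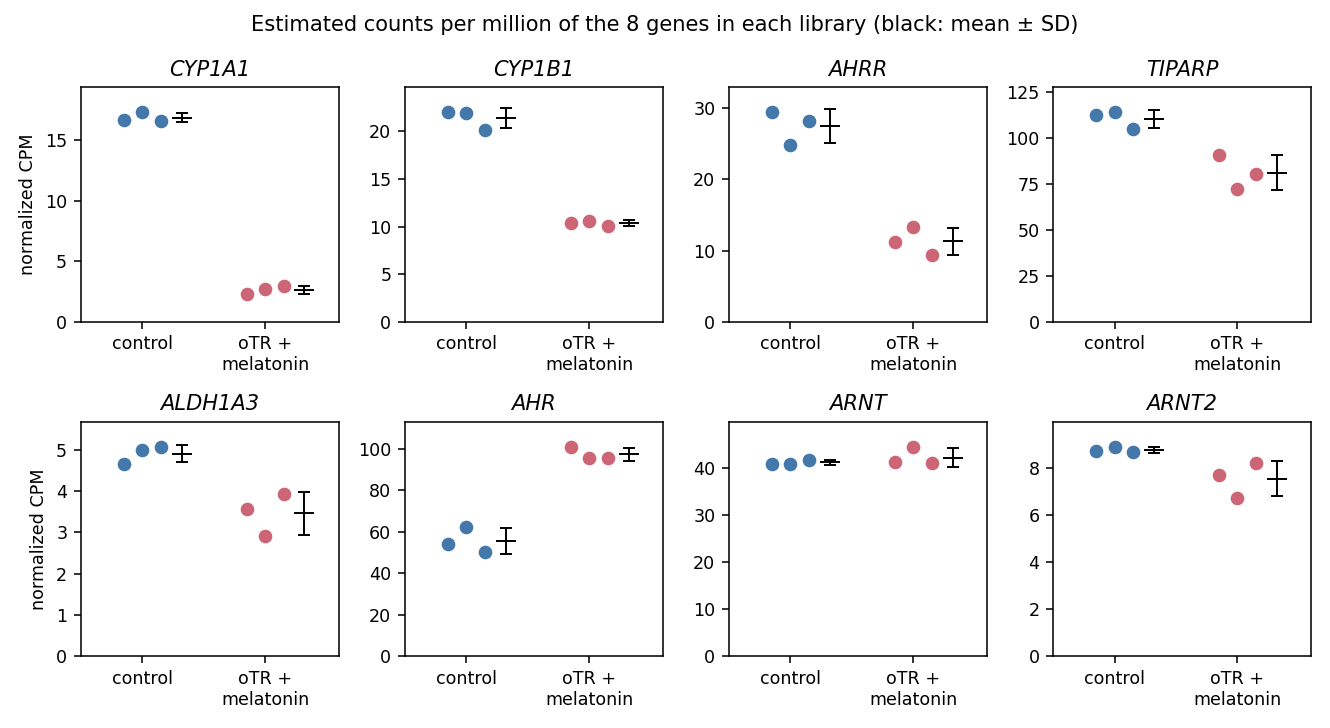
Normalized CPM of the 8 genes; each point is 1 library, blue for control and red for oTR plus melatonin, and black bars give the mean ± SD of 3 libraries. CYP1A1 drops from between 16.6 and 17.3 to between 2.26 and 2.93 CPM, AHR moves the other way, and only ARNT has overlapping groups.

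ARNT, the partner with which the receptor binds DNA (gene ID 405, chromosome 1, 150809713 to 150876737), had 40.8, 40.8 and 41.7 CPM in the controls and 41.1, 44.4 and 40.9 CPM in the co-treated libraries. The groups overlapped, and the log2 fold change was 0.04 ± 0.05 (SE). Its sign was not stable: it was -0.03 with a trend on gene length removed and -0.002 without co-treated replicate 2. On the TPM scale the groups did not overlap, with 18.6 ± 0.350 TPM in controls and 21.2 ± 1.24 TPM in co-treated cells, and ARNT was called upward there by limma in the 2 settings with a filter, at log2 changes of 0.17 and 0.18. The median of all genes on that scale lay at 0.11 and 0.12. ARNT2, a related partner gene expressed mainly in nervous tissue (gene ID 9915, chromosome 15, 80404382 to 80597933), had 8.70, 8.88 and 8.67 CPM in controls and 7.69, 6.72 and 8.18 CPM in co-treated libraries. Its groups did not overlap in CPM, at a log2 fold change of -0.21 ± 0.09 (SE) that was not called, but overlapped in TPM. With the length trend removed it was called, at -0.31.

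AHRR, the repressor of the receptor (gene ID 57491, chromosome 5, 321714 to 438285), had 29.4, 24.9 and 28.3 CPM in controls. The co-treated libraries had 11.2, 13.2 and 9.41 CPM, all below the lowest control. The log2 fold change was -1.29 ± 0.11 (SE), from a mean of 27.5 ± 2.37 to 11.3 ± 1.92 CPM (SD, n = 3). Nearly all of its counts belonged to NM_001377236, which starts at the printed window; the second transcript held 5 counts in control replicate 1 and none in the other libraries. The read-through gene PDCD6-AHRR shares AHRR sequence, so reads can be divided between them. Its estimated counts were 99, 523 and 248 in controls and 118, 29 and 316 after co-treatment, with overlapping groups. With those counts added to AHRR, the log2 fold change was -1.22 and the call held.

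TIPARP (gene ID 25976, chromosome 3, 156674590 to 156706770) had 113, 114 and 105 CPM in controls and 90.8, 72 and 80.5 CPM in co-treated libraries. The groups did not overlap, and the mean went from 110 ± 5.02 to 81.1 ± 9.39 CPM (SD, n = 3), a log2 fold change of -0.44 ± 0.07 (SE). The call was lost on the TPM scale without a filter, at -0.31. The transcript NM_015508, which starts at the printed window, carried 96.4%, 97.4% and 96.2% of the TIPARP counts in controls and 93.5%, 96.6% and 98.5% in co-treated libraries. Overlapping antisense and non-coding genes were low: TIPARP-AS1 held 20 to 34 counts in any library and LOC107986148 held 55 to 106.

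CYP1A1, the main inducible enzyme of the pathway (gene ID 1543, chromosome 15, 74719542 to 74725528), had 16.7, 17.3 and 16.6 CPM in controls. Co-treated libraries had 2.26, 2.67 and 2.93 CPM, or 123, 138 and 215 estimated counts. The co-treated mean was 15.5% of the control mean, and the log2 fold change was -2.68 ± 0.10 (SE), the tenth lowest of the 16557 genes. Control values varied by 2.22%, about the 3.02% that counting alone would give, whereas the co-treated values varied by 12.9% against 8.12% from counting. On the log2(TPM + 1) scale, which understates changes of low genes, the value was -2.15.

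CYP1B1, which forms catechol oestrogens (gene ID 1545, chromosome 2, 38067509 to 38076151), had 22, 21.9 and 20.1 CPM in controls and 10.4, 10.6 and 10.0 CPM in co-treated libraries. The co-treated mean was 48.5% of the control mean, with no overlap, and the log2 fold change was -1.04 ± 0.07 (SE). The overlapping gene RMDN2 also fell, by 0.38 ± 0.11 on the log2 scale (SE), and held 203 to 357 counts per library, fewer than the 549 to 1564 of CYP1B1. Without known strand, reads where the genes overlap cannot be assigned with certainty. ALDH1A3, which makes retinoic acid (gene ID 220, chromosome 15, 100879831 to 100916626), was the shallowest of the 8 in controls and had 150 to 356 counts over all libraries. It had 4.67, 4.99 and 5.07 CPM in controls and 3.56, 2.90 and 3.92 CPM in co-treated libraries, which did not overlap, and a log2 fold change of -0.50 ± 0.12 (SE). Its call was lost in the 3 tests on the TPM scale, at -0.28, -0.37 and -0.28. The overlapping non-coding gene LOC101927751 held 115, 186 and 155 counts in controls and 107, 85 and 124 in co-treated libraries. Its log2 fold change was -0.39 ± 0.15 (SE) and was not called. The same limit on assigning reads of overlapping genes holds for ALDH1A3.

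**Figure D2:**
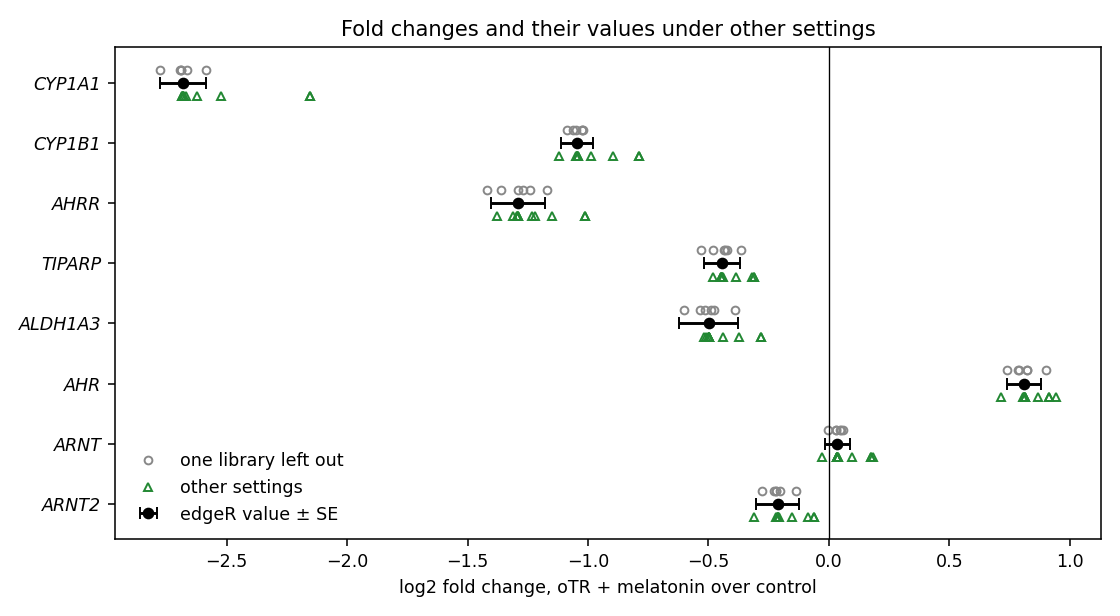
Log2 fold change of oTR plus melatonin over control for the 8 genes: black points are the edgeR value with its SE, grey circles leave out 1 library each, and green triangles are the other settings. CYP1A1 keeps between -2.78 and -2.15 and AHR between 0.71 and 0.94, whereas ARNT lies on both sides of 0.

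On a scale per length the 8 genes could be ordered by level in control cells. TIPARP was highest, at 60.4 ± 3.94 TPM (SD, n = 3), followed by AHR at 18.8 ± 2.41, ARNT at 18.6 ± 0.350, CYP1A1 at 13.7 ± 0.520, AHRR at 10.3 ± 0.863, CYP1B1 at 8.67 ± 0.599, ALDH1A3 at 3.02 ± 0.0603 and ARNT2 at 2.84 ± 0.0850 TPM. AHR and ARNT were the only neighbours in this order whose 3 control values overlapped. In co-treated cells CYP1A1 moved from place 4 to place 8, at 2.32 ± 0.262 TPM, and its range then overlapped those of ALDH1A3 and ARNT2.

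**Figure D3:**
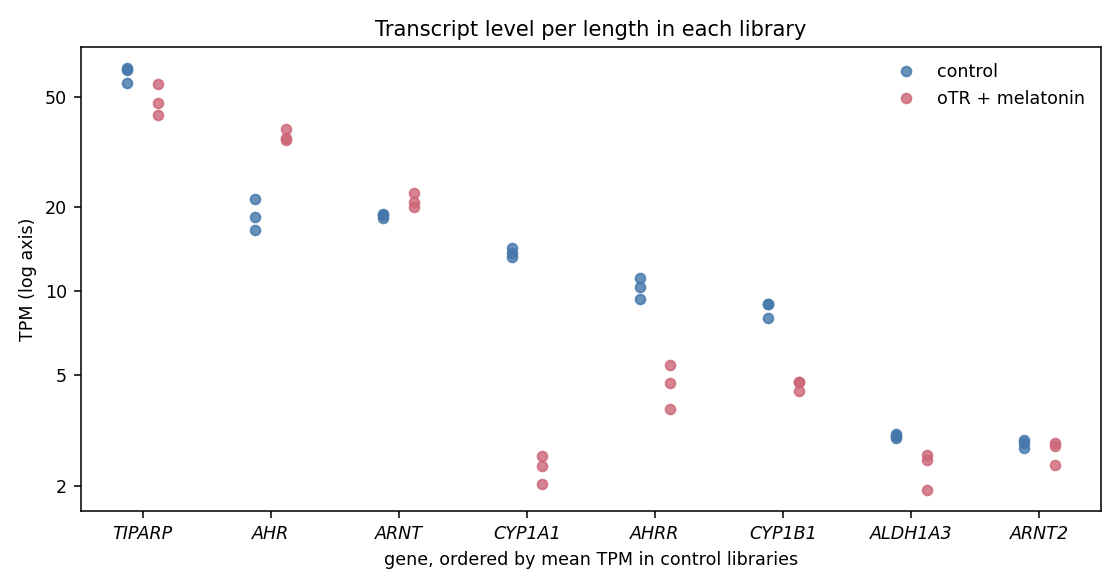
TPM of the 8 genes in each library on a log axis, ordered by the control mean; blue points are control and red points oTR plus melatonin. AHR and ARNT overlap in controls and separate after co-treatment, and CYP1A1 falls to the lowest place.

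The balance between these genes within a library also differed between the groups. The ratio of AHR to ARNT in TPM was 0.981, 1.14 and 0.909 in controls and 1.82, 1.57 and 1.74 in co-treated libraries. The ratio of AHR to its repressor AHRR was 1.67, 2.27 and 1.61 in controls and 8.16, 6.54 and 9.22 in co-treated libraries. CYP1A1 exceeded CYP1B1 in every control, at ratios of 1.52, 1.58 and 1.66, and lay below it in every co-treated library, at 0.433, 0.502 and 0.583. None of these 3 ratios overlapped between the groups, which follows from the changes of the single genes and is not separate evidence.

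Transcript shares were read with care, since the authors' counts apportion reads among overlapping transcripts. CYP1A1 counts were divided mainly between NM_000499 and NM_001319217, of 2600 and 2603 bases. NM_000499 took 56.7%, 38.1% and 46.1% in controls and 48.8%, 28.3% and 47.9% in co-treated libraries, so the groups overlapped, and both transcripts were lower in number of counts in each co-treated library. The shorter NM_001319216 was estimated at 14, 16 and 60 counts in controls and listed at 0 in all co-treated libraries, where the total was 123 to 215. The 24 ARNT transcripts shifted more between replicates than between groups: XM_005245153 took 17.0%, 2.23% and 42.8% of the counts in the 3 controls. No ARNT transcript share separated the groups, whereas the ARNT gene total lay between 40.8 and 41.7 CPM in the controls. ALDH1A3 showed the same instability, with NM_001293815 at 27.0%, 0% and 3.39% in controls and 22.2%, 0% and 0% in co-treated libraries.

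**Figure D4:**
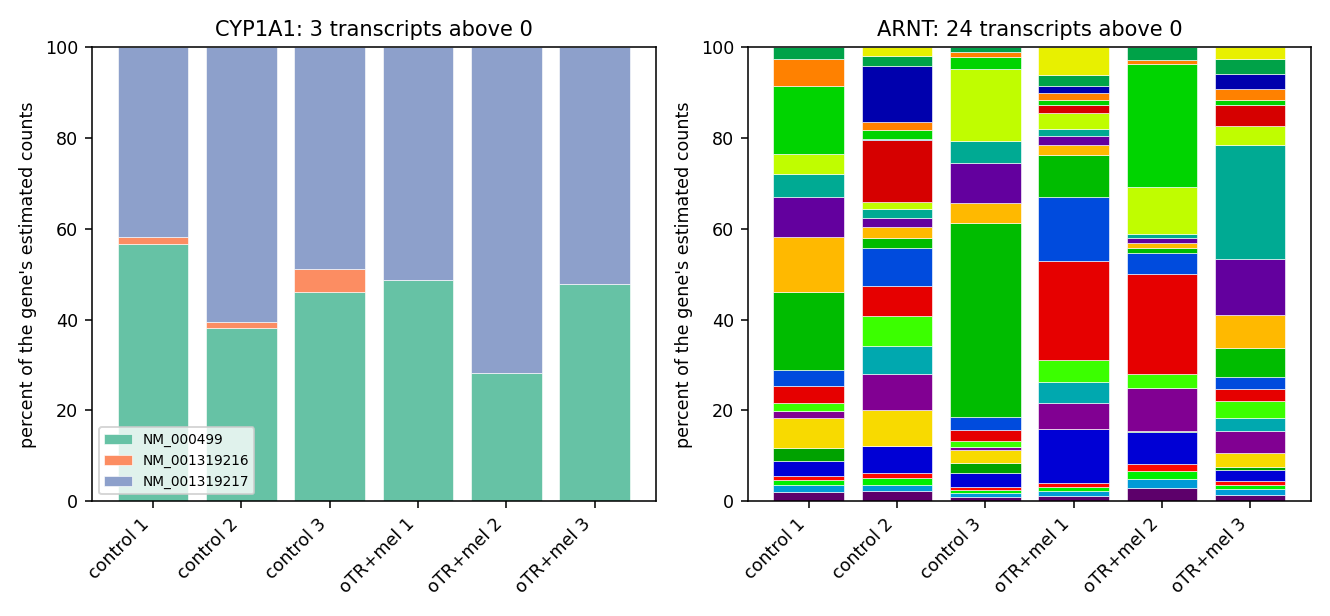
Percent of the estimated counts of CYP1A1 (left, 3 transcripts) and ARNT (right, 24 transcripts, 1 colour each) that each transcript took in each library. The shares of NM_000499 range from 28.3% to 56.7% with overlapping groups, and those of single ARNT transcripts change by up to 41.8 percentage points between libraries.

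The nearest profiles were sought among 10664 genes, as the smallest root mean square difference of log2 CPM over the 6 libraries, each gene centred on its own mean. Nearest to CYP1A1 were KRTAP2-3, B3GALT5, FBLN1, UCN2 and MPP4, at differences of 0.47 to 0.62, with log2 fold changes of -1.76 to -1.46, each smaller than that of CYP1A1. CYP1B1 had closer neighbours, TM4SF18, MGAT5B, CALB2, F3 and KCNQ3, at 0.07 to 0.09. AHRR was nearest to VIPR1, CALB2, ST6GALNAC5, CFAP251 and the pseudogene RPL13AP20, at 0.12 to 0.15. AHR was nearest to RALGPS2, AKR1C3, LRATD2, TLR4 and SLC30A4, at 0.04 to 0.05. These are descriptions over 6 libraries that share 1 contrast.

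Other genes of the pathway were taken from 13 lists of 189 genes, of which 133 were tested, 35 called upward and 28 downward, 47.4% in all against 33.7% of all genes. The share called depended on the count filter: at a minimum count of 50, 5650 of 13555 genes were called. Of the 121 list genes tested at that filter, 37 were called upward and 27 downward. Over all genes 16.6% were called upward and 17.1% downward, and the counts of each list below stand beside those shares. No list was tested as a set. The lists were chosen with earlier results of these data known, and genes were named mainly by their calls. Adjusted p-values given below for single genes are therefore descriptions and not independent evidence. The receptor's chaperone and transport genes were lower or not called: of 9 tested, 4 fell and 0 rose (edgeR; 0 also at an unadjusted p under 0.05, by DESeq2 and by limma-voom), with a median log2 fold change of -0.14 against 0.002 for all genes. HSP90AB1 and HSP90AA1, the chaperones that hold the receptor, fell by 0.32 ± 0.04 and 0.20 ± 0.04 on the log2 scale (SE), and the import factor KPNB1 fell by 0.17 ± 0.04. On the TPM scale without a filter the HSP90AB1 call was lost (-0.18), and the calls of HSP90AA1 (-0.07) and KPNB1 (-0.04) were lost in all 3 TPM tests. The kinase gene SRC had -0.14 ± 0.05 and lost its call without any 1 of the 6 libraries (-0.17 to -0.11), with library size alone (-0.08) and without a count filter (-0.15), and its sign turned on the TPM scale (0.003). PTGES3 had -0.06 ± 0.05 (SE) and was not called.

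Of 10 tested genes of the receptor's coregulators, listed as coactivators, 4 rose and 3 fell (median 0.12), and 1 of those that rose, NRIP1, is also known as a corepressor. NCOA3 and NCOA1, of the steroid receptor coactivator family, rose by 0.39 ± 0.05 and 0.24 ± 0.05 on the log2 scale, and the acetyltransferase gene KAT2B rose by 0.32 ± 0.06 (SE). NRIP1 was low and rose from 0.357 ± 0.118 to 1.09 ± 0.161 CPM (SD, n = 3). SMARCA4, CREBBP and CARM1 fell by 0.26 ± 0.05, 0.20 ± 0.04 and 0.20 ± 0.05 (SE). On the TPM scale the calls of CREBBP (-0.08) and CARM1 (-0.06) were lost in all 3 tests, SMARCA4 (-0.13) in the test without a filter, and CARM1 also with library size alone (-0.14).

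Of 9 other bHLH-PAS genes tested, which encode relatives of the receptor and of ARNT, 5 rose and 2 fell (median 0.20). EPAS1, a hypoxia-inducible factor that also pairs with ARNT, had 32.8, 34.0 and 32.1 CPM in controls and 78.9, 78.3 and 76.1 CPM in co-treated libraries. Its groups stood far apart, with a log2 value of 1.24 ± 0.05 (SE; adjusted p = 2.18e-07, edgeR). NPAS3, a neuronal member, fell from 2.62 ± 0.136 to 1.31 ± 0.117 CPM (SD, n = 3), and SIM2 fell by 0.39 ± 0.08 (SE), a call lost on the TPM scale without a filter (-0.26). NPAS1 had 0.53 ± 0.18 (SE) and lost its call without each library in turn except control replicate 2, at 0.43 to 0.58, and with DESeq2, at 0.53. HIF1A, which was outside the naming rule and was chosen after its values were seen, rose by 0.27 ± 0.06 (SE; edgeR adjusted p = 0.00332, all 3 co-treated libraries above the controls).

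Of 10 further genes listed with the classical receptor battery, 4 passed the filter, of which 1 rose and 1 fell (median -0.06). Those called, TXNRD1 and NFE2L2, belong to the oxidative stress response, so these counts do not describe the battery's inducible enzymes. Of those enzymes, CYP1A2, ALDH3A1, UGT1A6 and GSTA1 were not tested. NQO1, the quinone reductase of that battery, had 556 CPM in controls and 527 CPM in co-treated cells, a log2 fold change of -0.08 ± 0.05 (SE) that was not called, and CYP2S1 had -0.05 ± 0.11. TXNRD1, a thioredoxin reductase, rose by 0.27 ± 0.06 (SE). NFE2L2, the oxidative stress factor, was called at -0.20 ± 0.06. The call did not hold without control replicate 1 (-0.18), co-treated replicate 2 (-0.16) or 3 (-0.19), under scaling to library size (-0.15) or in TPM (-0.06).

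Of 15 tested genes reported elsewhere to respond to receptor ligands, 4 rose and 6 fell (median -0.34). IL24, counted among those that fell, was near the floor, at a mean of 0.267 CPM in controls and 0 in co-treated libraries. IL6 and IL1B, not called, were also near it, at control means of 0.520 and 0.288 CPM. All of these lie below the list's median and draw it down. STC2, a secreted glycoprotein hormone gene, had 132, 133 and 129 CPM in controls and 82.1, 85.1 and 86.8 CPM in co-treated libraries. All 3 lay below the controls, and the log2 value was -0.63 ± 0.04 (SE; adjusted p = 7.00e-06, edgeR). SLC7A5, the large neutral amino acid transporter that also carries kynurenine, fell by 0.50 ± 0.06 (SE; edgeR adjusted p = 0.000136, lower in 3 of 3). LIFR, a cytokine receptor gene, and SOS1, an exchange factor for RAS, rose by 0.66 ± 0.09 and 0.29 ± 0.07. EREG and NEDD9 were called at 0.22 ± 0.08 and 0.38 ± 0.13 (SE). EREG, whose groups overlapped, lost its call without each library except control replicate 2 (0.15 to 0.25) and with the length trend removed (0.16), and NEDD9 without each library except control replicate 3 (0.31 to 0.40) and with DESeq2 (0.38).

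Of 11 tested genes of the tryptophan and kynurenine route to receptor ligands, 2 rose, both encoding enzymes, and 2 fell, the transporter gene SLC7A5 and its partner SLC3A2 (median -0.10). The 36.4% called was near the 33.7% of all genes. IDO1, a dioxygenase that forms kynurenine, was too low to be tested. KYNU, which breaks kynurenine down, rose by 0.39 ± 0.05 (SE; edgeR adjusted p = 0.000383, higher in 3 of 3 libraries), a call lost on the TPM scale without a filter (0.74). KYAT3 was called at 0.21 ± 0.06, but not if control 1 (0.19), control 3 (0.18) or co-treated library 1 (0.15) was left out. SLC3A2 was called at -0.24 ± 0.07, but not if control 2 (-0.24), control 3 (-0.21) or co-treated library 2 (-0.25) was left out, nor under scaling to library size (-0.18) or in TPM (-0.10). Of the melatonin genes, the receptor genes MTNR1A and MTNR1B and the synthesis genes AANAT and ASMT were too low to be tested, and NQO2, a quinone reductase that binds melatonin, rose by 0.38 ± 0.07 (SE).

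Of 16 tested genes of electron supply to CYP1 enzymes and of haem synthesis and breakdown, 2 rose and 4 fell (median -0.05). The 37.5% called was near the 33.7% of all genes. UROD, of haem synthesis, fell by 0.50 ± 0.07, HMOX1, which degrades haem, by 0.36 ± 0.07 and CYB5A, an electron donor, by 0.30 ± 0.07 (SE). ALAD, of haem synthesis, and BLVRA, which reduces biliverdin, rose by 0.33 ± 0.07 and 0.30 ± 0.05. On the TPM scale the calls of HMOX1 (-0.22, without a filter) and CYB5A (-0.16 and -0.17) were lost. PGRMC1 was called at -0.16 ± 0.05, but not if control 1 (-0.16), control 2 (-0.15) or co-treated library 2 (-0.13) was left out, nor under scaling to library size (-0.11), with the length trend removed (-0.11) or in TPM (-0.04). POR, the reductase that every microsomal P450 needs, had 0.16 ± 0.06 (SE) and was not called.

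Among 15 other P450 genes tested, 6 rose and 1 fell (median 0.16). The one that fell was CYP24A1, which inactivates vitamin D, with 4.47 ± 0.0827 CPM in controls and 1.61 ± 0.255 CPM after co-treatment (SD, n = 3). The log2 value was -1.48 ± 0.13 (SE; adjusted p = 3.56e-05, edgeR), and all 3 co-treated libraries lay below the controls. CYP2U1 rose by 0.38 ± 0.09 (SE). CYP39A1 had 0.41 ± 0.13 and lost its call without each library except control replicate 2 (0.36 to 0.45) and with DESeq2 (0.41).

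Around ALDH1A3, the retinoic acid genes changed in both directions: of 9 tested, 2 rose and 3 fell (median 0.07). RDH10, which makes the substrate of ALDH1A3, rose by 0.56 ± 0.10, while the binding protein gene CRABP2 and the receptor genes RARA and RXRA fell by 0.56 ± 0.09, 0.44 ± 0.06 and 0.35 ± 0.04 (SE). RDH11 had 0.12 ± 0.04 and lost its call without any 1 of the 6 libraries (0.11 to 0.14). Of 13 other aldehyde dehydrogenase genes tested, 2 rose and 1 fell (median 0.05), and the 23.1% called was below the 33.7% of all genes. ALDH3A2 and ALDH5A1 rose by 0.48 ± 0.05 and 0.29 ± 0.07, and ALDH18A1, of proline synthesis, fell by 0.38 ± 0.04 (SE). Of 17 tested relatives of TIPARP and ADP-ribose removal genes, 6 rose and 2 fell (median 0.05). PARP10, another mono-ADP-ribosyltransferase, and TNKS, a tankyrase, rose by 0.37 ± 0.06 and 0.35 ± 0.07, and PARP1 fell by 0.18 ± 0.04 (SE), a call lost on the TPM scale (-0.05). OARD1 was called at -0.20 ± 0.06, but not if control 1 (-0.18) or 3 (-0.20) or co-treated library 2 (-0.16) or 3 (-0.17) was left out, nor under scaling to library size (-0.14) or in TPM (-0.04). Of 6 tested genes of oestrogen hydroxylation and conjugation, 0 were called by edgeR, 1 at an unadjusted p under 0.05, 1 by DESeq2 and 0 by limma-voom.

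**Figure D5:**
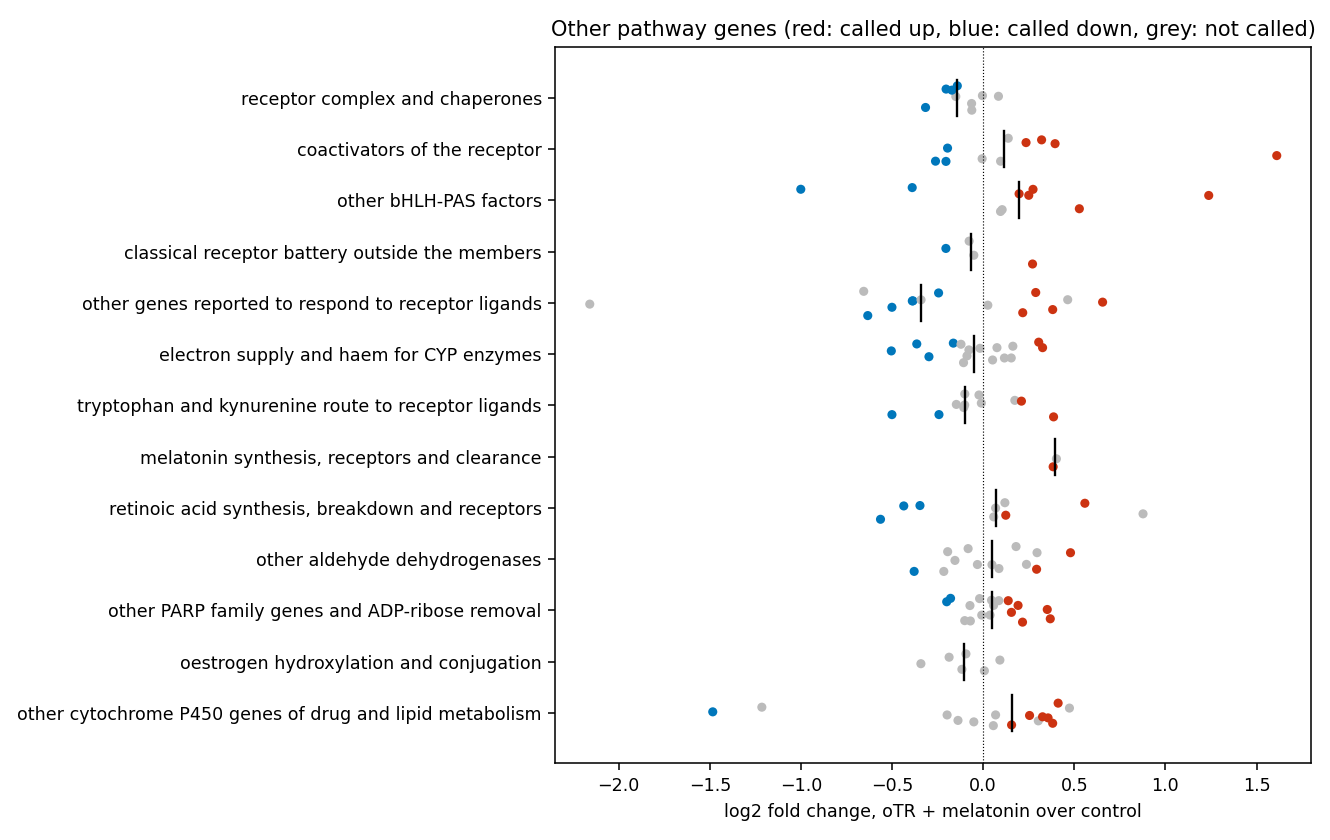
Log2 fold change of the tested genes of the 13 lists: each point is 1 gene, red if called upward, blue if called downward and grey if not called, and black bars give each list's median. IL24, listed at 0 in all co-treated libraries, is not drawn but is in its list's median. EPAS1 at 1.24 and CYP24A1 at -1.48 are the highest and lowest drawn points of their lists.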

How the data were processed

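RNA sequencing libraries of 6 samples, 3 per group, were grouped by the sample titles. The authors deposited, per the file headers, read counts, FPKM and TPM for genes and transcripts. The deposited read counts are estimated counts (whole numbers that follow FPKM times length), apportioned among overlapping transcripts, so the variance of shared genes may depart from that of counted reads. The tools named per the submitters' processing notes, in no stated role, are StringTie 2.1.3b, SAMtools 1.9, HISAT2 2.1.0, Trimmomatic 0.38 and Bowtie2, with build GRCh38. Strand use in counting is not given in the sources used here. Columns starting with Con were taken as control, and those starting with Mo as melatonin with oTR.

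Gene counts were tested with edgeR 4.0.16 in R 4.3.3 (quasi-likelihood, relative log expression factors, filterByExpr minimum count 10, Benjamini-Hochberg, threshold 0.05), after a check on simulated data. SEs of log2 fold changes come from the quasi-likelihood F. CPM uses the same factors. The spread behind the p-values is that of these samples and may be technical. Libraries of a group were not duplicates of each other (chi-square over degrees of freedom 11.6 to 19). The alternatives comprised DESeq2 1.42.0, TMM factors, scaling to library size, limma 3.58.1 on voom values and on log2(TPM + 1) and log2(TPM + 0.1), other filters, the replicate block, removal of a length trend and each library left out; the addition of PDCD6-AHRR was chosen after seeing the data. The members and lists were chosen with earlier results of these data known. From each list, all called genes were named where 4 or fewer moved in a direction, otherwise the 2 largest changes at 1 CPM or more. Nearest profiles needed 5 CPM in the higher group. All 189 list genes matched the table by symbol or RefSeq gene ID. Promoter windows came from RefSeq; protein sequences were not used here. Figures used matplotlib 3.10.9.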

Additional observations from a re-analysis of the deposited data

How the results depend on the processing

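Under the 18 alternatives CYP1A1, CYP1B1, AHRR and AHR kept their direction and call, with log2 fold changes of -2.78 to -2.15, -1.12 to -0.79, -1.42 to -1.01 and 0.71 to 0.94. Leaving out single libraries ended none of the 6 calls, though these refits reuse the libraries from which the genes were chosen. Calls of the 8 genes that changed were TIPARP on log2(TPM + 1) without a filter (-0.3125, lost) and ALDH1A3 on log2(TPM + 1) (-0.2799, lost), log2(TPM + 0.1) (-0.3748, lost) and log2(TPM + 1) without a filter (-0.2799, lost). ARNT was called on log2(TPM + 1) (0.1739) and log2(TPM + 0.1) (0.1817), and its sign turned with the length trend removed (-0.0274) and without co-treated replicate 2 (-0.002442); leaving out single libraries gave -0.002442 to 0.05809. ARNT2 was called with the length trend removed (-0.313). The cause was not tested. SRC turned to 0.0031 on log2(TPM + 1), with or without a filter, and 0.0032 on log2(TPM + 0.1).

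The split of all calls depended on the scale: 2743 rose and 2835 fell in the main test, 3816 and 2065 with library size alone, 4458 and 1290 on log2(TPM + 1), 4444 and 1284 on log2(TPM + 0.1), and 3210 and 968 on log2(TPM + 1) without a filter. Of the list genes 35 rose and 28 fell, 43 and 22 with library size alone, 48 and 12 on log2(TPM + 1), 49 and 12 on log2(TPM + 0.1) and 38 and 10 on log2(TPM + 1) without a filter. Leaving out single libraries gave 25 to 29 upward and 24 to 27 downward list calls. Of 67 other genes tracked, 45 kept their call under each alternative that tested them, which for NPAS3 and NRIP1 was 16 of the 18. Deviations of same-numbered libraries from their group means correlated at r = 0.0691, 0.000448 and -0.0357, against -0.0524 to 0.0587 for differently numbered ones. Centring within such small groups ties these values together, so they cannot settle whether the numbers pair the samples. With the replicate block 3177 genes rose and 3190 fell, 6367 in all against 5578 in the main test, and CYP1A1 was at -2.685. The order of the 8 genes in controls was the same in FPKM. Depth limits ALDH1A3 most in controls, and CYP1A1 most in co-treated libraries, at 123 to 215 counts.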
